A study of Mus musculus with 4 samples.

Results

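The ephrin ligands were followed in E0771 cells, a mouse breast carcinoma cell line, across 4 one-colour DNA microarrays. The members were the 8 genes whose symbol in the platform's probe annotation was Efna1, Efna2, Efna3, Efna4, Efna5, Efnb1, Efnb2 or Efnb3, out of 19316 genes with values, and each was read by 1 probe on 1 spot. All 8 entered the tests, which covered 18372 genes. The cells received either 30 ng/ml of IL-26 or, as vehicle, medium with nothing added, and were taken after 6 or 24 h, so the groups were vehicle 6 h, IL-26 6 h, vehicle 24 h and IL-26 24 h, with 1 array in each. All of them grew in the same serum-containing medium, and the labels name no genetic change in any group. IL-26 is a cytokine of the IL-10 family, and the title of the series names the Eph receptor EphA3 as its receptor. The ephrins are the known ligands of Eph receptors, and whether IL-26 shares a signalling system with them was not tested here. With no replicate in any group, every value speaks for these 4 arrays, the number of arrays limits the precision, and nothing in the labels tells separate cultures from a shared one.

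Ephrins are cell-surface proteins that bind the Eph receptors, a large family of receptor tyrosine kinases, on neighbouring cells. The A class (Efna genes) is held in the membrane by a glycosylphosphatidylinositol anchor and mostly binds EphA receptors, whereas the B class (Efnb genes) crosses the membrane, has a short cytoplasmic tail and mostly binds EphB receptors. Contact sends a forward signal through the receptor and a reverse signal through the ephrin, and in epithelia and their tumours the system is known for its part in cell repulsion, boundary formation and migration.

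The promoters of the ephrins that the results turn on are shown first. They are Efna1, the ephrin whose spot stood several times above the blank spots on every array, Efna5, whose spot stayed next to the blank spots, and Efnb1, the only ephrin that passed a test. RefSeq windows of the GRCm38.p6 build, running from 250 bases before to 50 bases after a gene's start, were given for 7 of the 8 genes (all but Efnb3), 9 windows in all. Each sequence is printed 5′ to 3′ on the gene's own strand, with motif matches in capitals. The windows of Efna1 lie at chr3:89280902-89281201 and chr3:89279596-89279895 on the minus strand, that of Efna5 at chr17:62881268-62881567 on the minus strand, and that of Efnb1 at chrX:99135811-99136110 on the plus strand.
Efna1, the first window: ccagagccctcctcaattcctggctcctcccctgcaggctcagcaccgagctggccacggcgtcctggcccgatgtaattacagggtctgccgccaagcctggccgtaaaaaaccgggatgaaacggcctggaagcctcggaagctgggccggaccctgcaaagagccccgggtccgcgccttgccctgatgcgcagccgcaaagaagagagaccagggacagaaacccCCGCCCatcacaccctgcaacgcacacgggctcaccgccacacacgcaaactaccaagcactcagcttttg
Efna1, the second window: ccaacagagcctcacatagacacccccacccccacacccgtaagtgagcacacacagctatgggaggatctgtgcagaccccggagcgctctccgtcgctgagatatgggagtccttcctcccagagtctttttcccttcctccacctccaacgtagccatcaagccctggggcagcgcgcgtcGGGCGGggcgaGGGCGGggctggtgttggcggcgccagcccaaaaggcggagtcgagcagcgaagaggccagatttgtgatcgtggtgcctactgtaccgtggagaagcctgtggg
Efna5: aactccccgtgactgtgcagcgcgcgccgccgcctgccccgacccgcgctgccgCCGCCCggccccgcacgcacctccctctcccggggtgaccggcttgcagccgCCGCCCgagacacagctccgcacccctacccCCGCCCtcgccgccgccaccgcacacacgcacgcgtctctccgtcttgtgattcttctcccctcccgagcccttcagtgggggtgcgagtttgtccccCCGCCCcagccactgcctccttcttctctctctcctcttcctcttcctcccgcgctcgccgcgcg
Efnb1: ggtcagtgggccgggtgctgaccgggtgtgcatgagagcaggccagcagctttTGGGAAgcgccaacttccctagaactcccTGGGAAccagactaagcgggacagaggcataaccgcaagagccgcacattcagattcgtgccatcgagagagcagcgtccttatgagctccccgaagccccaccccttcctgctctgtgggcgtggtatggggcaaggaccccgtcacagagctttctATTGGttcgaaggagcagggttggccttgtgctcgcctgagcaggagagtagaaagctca
The motifs were searched on both strands, so that CCGCCC is the GC box GGGCGG and ATTGG the CCAAT box read from the other strand. The GC box was found in 7 of the 9 ephrin windows, against 35.7% of 32851 promoter windows of the same length, and in both windows of Efna1 and in that of Efna5. The CCAAT box was found in 4 windows, Efnb1 among them, against 37.4% of all windows. The letters TGGGAA, the core bound by the Notch effector RBPJ, were found in 2 windows, Efnb1 and 1 of Efna3, against 25.6%, and the TATA box TATAAA in 1, that of Efnb2, against 13.6%. A NF-kB motif was found in 1 window, that of Efna2, against 8.46%. The AP-1 motif TGACTCA (5.2% of all windows) and the hypoxia response core ACGTG (19.6%) were found in 0 ephrin windows. TGGGAA can overlap a NF-kB match, but no ephrin window held both. Guanine and cytosine made up between 55.7% and 74.7% of the bases in the ephrin windows, where the median of all windows was 52.7%, and the windows held between 11 and 38 CG pairs against a median of 7. Efna1, Efna3 and Efna4 are neighbouring coding genes on chromosome 3, while Efna2 is on chromosome 10, Efna5 on 17, Efnb1 on X, Efnb2 on 8 and Efnb3 on 11.

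The arrays were dim for most genes. The median gene spot lay between 78.0 and 84.4 in the scanner's linear units, close to the mean of the 384 blank spots, which lay between 49.6 and 56.5. A spot was called detected above a limit set at the mean of the blank spots plus 2 SD, which was 52.0 for vehicle 6 h, 51.8 for IL-26 6 h, 58.1 for vehicle 24 h and 53.4 for IL-26 24 h. Between 32.3% and 52.1% of the 96 negative control spots also passed that limit, so that the highest negative control (54.3, 63.4, 71.7 and 66.3 on these arrays in turn) was used as a second reference. The vehicle 24 h array had the highest blank spots, and spot intensities as scanned carry that shift. The labelled cell type was checked against marker lists, and a marker was counted where its spot was above every negative control on all 4 arrays. Of the mesenchymal markers 5 of 8 were, with the filament gene Vim at 15519 to 19167 and Acta2 at 896.2 to 1077, whereas Cdh2 (59.0 to 63.8), Fn1 (51.7 to 59.0) and Col1a1 (64.4 to 67.1) were not. Of the epithelial markers 3 of 10 were, with the keratin gene Krt8 at 1436 to 1838, Cldn4 at 274.5 to 340.8 and Krt18 at 69.5 to 74.3, and the adhesion genes Epcam (59.4 to 66.2) and Cdh1 (64.8 to 70.1) were not. Of the endothelial markers 2 of 6 were, Kdr (75.5 to 93.1) and Esam (87.6 to 109.2), and Pecam1 and Tek passed even the blank limit on only 2 and 1 arrays. Of the leukocyte markers 1 of 5 was, the lysosomal gene Cd68 at 332.8 to 421.2, while Ptprc read 55.2 to 60.6, and of the neural markers 2 of 5 were, Rbfox3 and Tubb3. By limma at an adjusted p of 0.05, no marker of these lists passed for IL-26. For time 2 of 10 epithelial, 3 of 8 mesenchymal, 2 of 6 endothelial, 0 of 4 tested leukocyte and 2 of 5 neural markers passed, beside 28.8% of all genes.

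Among the A class, Efna1 encodes ephrin-A1, the best known ligand of EphA2 and first described in human endothelial cells as a product of a TNF-induced gene. Its spot read 374.9 for vehicle 6 h, 399.6 for IL-26 6 h, 451.7 for vehicle 24 h and 425.1 for IL-26 24 h, between 7.55 and 8.18 times the mean of the blank spots. It was above all 96 negative controls on every array, with the vehicle 6 h array lowest. The local background around the Efna1 spot was close to the spot itself on 3 of the 4 arrays, at 380.3, 288.2, 438.0 and 406.9 on the arrays in the same order, where the median local background of an array lay between 53.6 and 62.7. Its lowest local background, on IL-26 6 h, did not fall on the array with the lowest spot.

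Efna2, which encodes a ligand best studied in the retinotectal map, read 101.8, 100.4, 106.1 and 90.6 in the same order, with the IL-26 24 h array lowest. Efna4 encodes another GPI-anchored ligand and read 75.0, 76.7, 88.2 and 76.3, with vehicle 24 h highest. Both genes were above every negative control on all 4 arrays. Efna3, whose human gene is induced by hypoxia in breast cancer cells, read 60.5, 59.8, 67.1 and 62.0, or 1.19 to 1.22 times the blank mean, and up to 2 of the negative controls were as bright. Efna5, a repulsive guidance cue of retinal axons, read 54.4, 53.1, 58.2 and 56.1. On the vehicle 24 h array 30 of the 96 negative controls were at least as bright as Efna5, and on IL-26 6 h 10 of them were, so that its values on those arrays could not be told from those of negative controls.

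Of the B class, Efnb1 encodes ephrin-B1, an X-linked ligand whose human gene is mutated in craniofrontonasal syndrome. It read 106.7 for vehicle 6 h, 85.9 for IL-26 6 h, 88.5 for vehicle 24 h and 84.8 for IL-26 24 h. The vehicle 6 h array stood above the other three, which lay close together, and all 4 were above every negative control. The local background around Efnb1 was also highest on the vehicle 6 h array, at 84.0 against 51.7, 69.6 and 58.5. Efnb3, which encodes a ligand of the developing midline, read 74.0, 64.0, 71.9 and 66.2, and was above every negative control on 3 of the 4 arrays. Its local background followed the same order (69.0, 54.1, 61.8 and 57.4), and the spot to its left, C1qbp, read 4614, 3689, 3123 and 3037. Efnb2, a ligand that marks arterial endothelium, read 56.5, 54.4, 61.7 and 56.5, with between 0 and 4 negative controls as bright. Efnb2, Efna3 and Efna5 were thus each above every negative control on 1 array, vehicle 6 h.

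**Figure D1:**
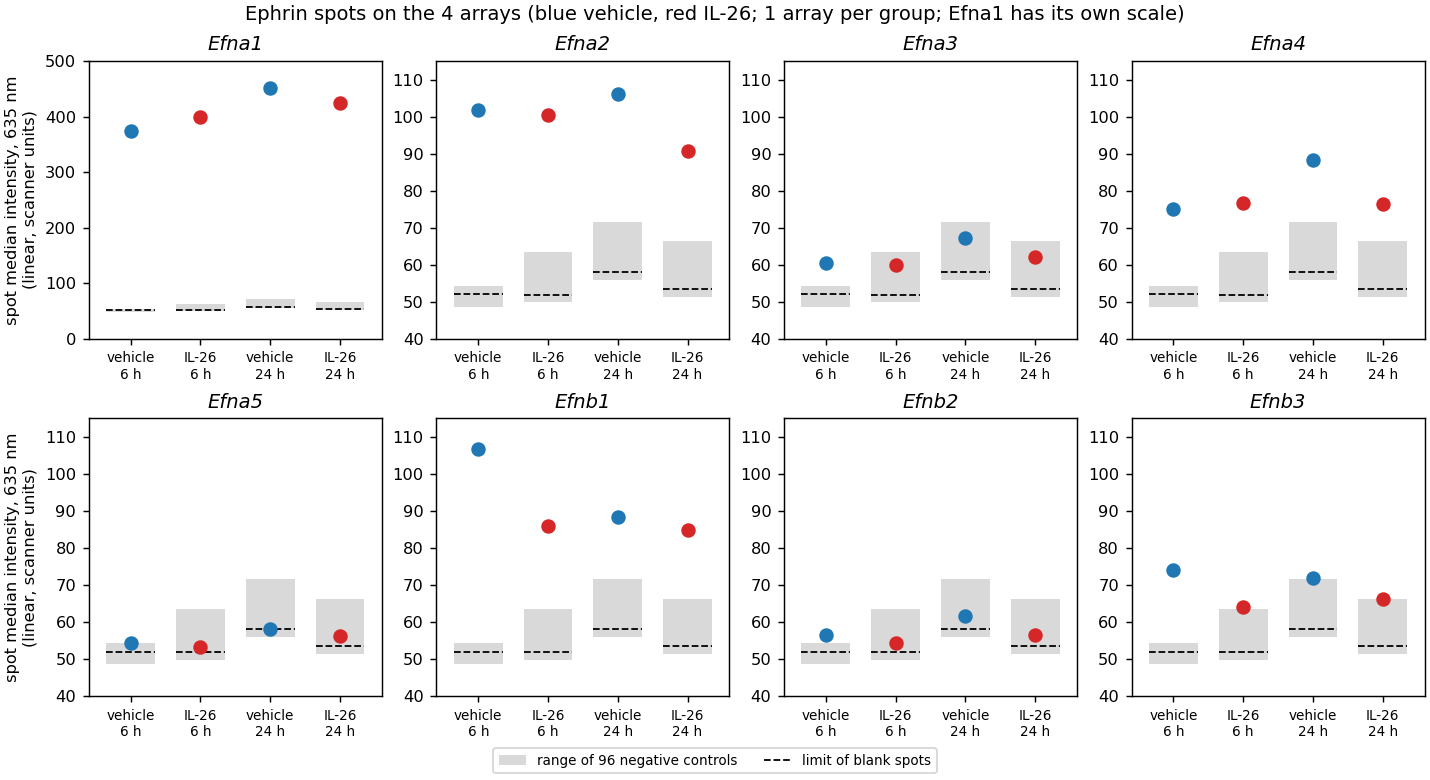
Spot median intensity (linear scanner units, vertical axis) of each ephrin on the 4 arrays (horizontal axis; blue, vehicle; red, IL-26; 1 array per group). Grey bars span the 96 negative controls and dashed lines mark the limit of the blank spots. Efna1, on its own scale, lies between 374.9 and 451.7, far above both, whereas Efna5 and Efnb2 lie at or inside the grey bars on 3 arrays. The local background around the Efna1 spot, which is not drawn, lay between 288.2 and 438.0.

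No ephrin passed the test for IL-26. The comparison asked which transcripts IL-26 moved, and it was made on log2 values after background correction and quantile normalization, with IL-26 and time as the 2 terms of a limma model and Benjamini-Hochberg adjustment over all 18372 genes. An offset of 50 units added to every spot draws the log2 differences of dim genes towards 0, so the differences are understated, least for Efna1 with its brighter spot. Averaged over both times, 0 of the 8 ephrins passed an adjusted p of 0.05, and all 8 had an adjusted p of 0.999. Over all genes 0.169% were called higher and 0.321% lower (31 and 59 genes, which became 109 and 83 with median scaling in place of quantile normalization), so that few genes of any kind were called. At an unadjusted p under 0.05 there was 1 ephrin, Efnb3, and 4.77% of all genes (limma). The median IL-26 difference over the ephrins was -0.02 on the log2 scale, and over all genes 0.00.

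The ephrins read as follows on this scale. Efna1 stood at 8.46 in vehicle 6 h, 8.69 in IL-26 6 h, 8.78 in vehicle 24 h and 8.79 in IL-26 24 h, so that IL-26 minus vehicle was 0.23 at 6 h and 0.01 at 24 h. Averaged, its difference was 0.12 ± 0.10 (SE), and the 95% interval ran from 0.942-fold to 1.25-fold. Efnb1 stood at 6.67, 6.43, 6.37 and 6.42 in the same order, with differences of -0.25 at 6 h and 0.05 at 24 h, and an average of -0.10 ± 0.06 (0.861-fold to 1.01-fold). Efnb3 stood at 6.16, 5.99, 6.04 and 6.04, with differences of -0.17 and 0.00 and an average of -0.08 ± 0.04 (0.892-fold to 0.998-fold, unadjusted p = 0.0425 and adjusted p = 0.999 by limma). For all 3 genes the difference was larger at 6 h than at 24 h, and in each the vehicle 6 h array was the one farthest from the other three. For Efnb1 and Efnb3 the differences at 6 h and at 24 h both lay outside the interval of the average.

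The other 5 ephrins had averaged IL-26 differences between -0.03 and 0.03. Efna2 stood at 6.61, 6.66, 6.64 and 6.52, which gave 0.05 at 6 h and -0.12 at 24 h. Efna4 stood at 6.18, 6.25, 6.37 and 6.27, or 0.08 and -0.10. For both genes the sign of the IL-26 difference at 24 h was opposite to that at 6 h. Efna3 differed by 0.0015 and 0.01, Efna5 by -0.03 and 0.08, and Efnb2 by -0.04 and -0.0044. No ephrin interval reached beyond -0.22 or 0.32 on the log2 scale with the offset. The intervals take the spread largely from the other genes, since the fit left 1 residual degree of freedom against 63.8 prior ones. The offset also narrows them and the fold intervals above, so they do not bound the change in RNA. With the series matrix values the averaged difference of Efnb3 was -0.36 ± 0.18 (SE). Efnb2 gave -0.34 ± 0.31 and Efna5 0.40 ± 0.43 there. These lay outside that range, the other ephrins lay inside it, and no ephrin passed by limma.

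For single pairs of arrays, which allow no test, a gene was called past a 2-fold difference in either direction. No ephrin passed it at 6 h, where 0.0163% of all genes did, or at 24 h, where 0.00544% did. Over all genes the SD of the IL-26 difference was 0.095 at 6 h and 0.101 at 24 h. By that SD, Efna1 and Efnb1 at 6 h were over 2 SD from 0 and the other ephrins nearer. The SD pools genes of all intensities, and the order need not hold against each gene's own spread. The SE of the averaged difference was 0.10 for Efna1, 0.06 for Efnb1 and 0.04 for Efnb3. Efna1 was the ephrin with the brightest local background. On vehicle 6 h its spot lay below that background, so the subtracted Efna1 value was below 0 there and no fold is given for 6 h. A brighter spot had the same pattern. C1qbp, beside Efnb3, read 4614 on that array with a local background of 5039. Whether the local background holds signal of the spot itself was not tested. With local background subtracted the difference of Efnb1 at 6 h was -0.11.

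**Figure D2:**
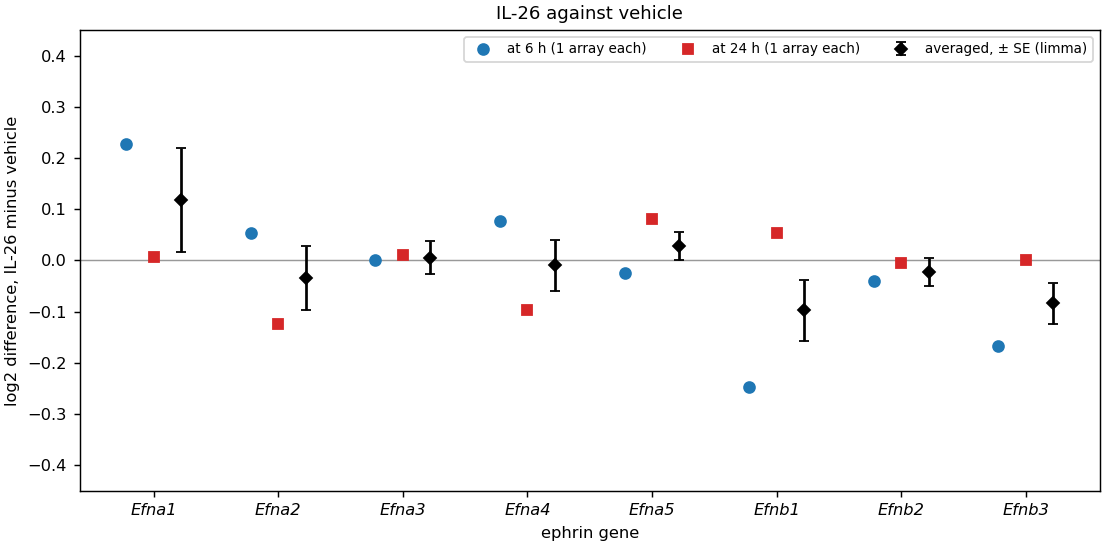
Log2 difference of IL-26 minus vehicle (vertical axis) for each ephrin (horizontal axis) at 6 h (blue circles) and 24 h (red squares), each from 1 array against 1, with the limma average ± SE (black diamonds). The 6 h values run from -0.25 for Efnb1 to 0.23 for Efna1, and the 24 h values from -0.12 for Efna2 to 0.08 for Efna5.

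Time in culture was the other factor of the design. Efnb1 fell by 0.15 ± 0.06 (SE) on the log2 scale from 6 to 24 h, averaged over both treatments, with an adjusted p of 0.0451 by limma and an interval of 0.829-fold to 0.977-fold. That SE rests largely on the spread of other genes. The differences in vehicle (-0.3022) and in IL-26 (-0.0014) both lay outside the interval, which is -0.27 to -0.03 on the log2 scale. Efnb1 was 1 of 8 ephrins to pass and 0 rose. Over all genes 14.4% were called lower and 14.5% higher with time (2639 and 2660 genes, or 2443 and 3865 with median scaling), a share near that of the ephrins. At an unadjusted p under 0.05 there were 3 ephrins, Efna1, Efna4 and Efnb1, and 37% of all genes. The median time difference over the ephrins was 0.01, and over all genes -0.00422.

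The fall of Efnb1 rested on the vehicle pair, in which the 6 h array was high. Between the vehicle arrays Efnb1 differed by -0.30, and between the IL-26 arrays by -0.0014. A fit without either vehicle array therefore returned -0.0014, and a fit without either IL-26 array -0.3022, both with no residual degree of freedom and no test. The local background of the Efnb1 spot was highest on that same vehicle 6 h array, as given above. With local background subtracted the time difference of Efnb1 was -0.10 (adjusted p = 0.89, limma), and the call was also lost with an offset of 16 (adjusted p = 0.0766), with every gene kept (0.16) and with no trend of the variance on intensity (0.358).

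The other ephrins did not pass. Efna1 differed by 0.32 between the vehicle arrays and 0.10 between the IL-26 arrays, on average 0.21 ± 0.10 (adjusted p = 0.126, limma). Efna4 differed by 0.19 and 0.02, on average 0.10 ± 0.05 (adjusted p = 0.113). Both genes were higher at 24 h in both treatments, with the wider gap in vehicle. Efna3, at 5.89, 5.89, 5.93 and 5.94, differed by 0.04 and 0.05 (adjusted p = 0.302, limma), the closest match of the 2 treatments among the ephrins. Its spot stayed within 1.22 times the blank mean, where the offset draws differences towards 0. With the series matrix values the 2 differences were 0.08 in vehicle and 0.16 in IL-26. Efna2 differed by 0.04 in vehicle and -0.14 in IL-26, Efna5 by -0.05 and 0.05, Efnb2 by -0.0043 and 0.03, and Efnb3 by -0.11 and 0.05. These 4 genes had opposite signs in the 2 treatments, and their adjusted p-values lay between 0.607 and 0.995. No ephrin passed 2-fold between the vehicle arrays, where 1.07% of all genes did, or between the IL-26 arrays, where 1.09% did. As with IL-26, the offset left no room for a 2-fold fall of Efna3, Efna4, Efna5, Efnb2 or Efnb3.

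**Figure D3:**
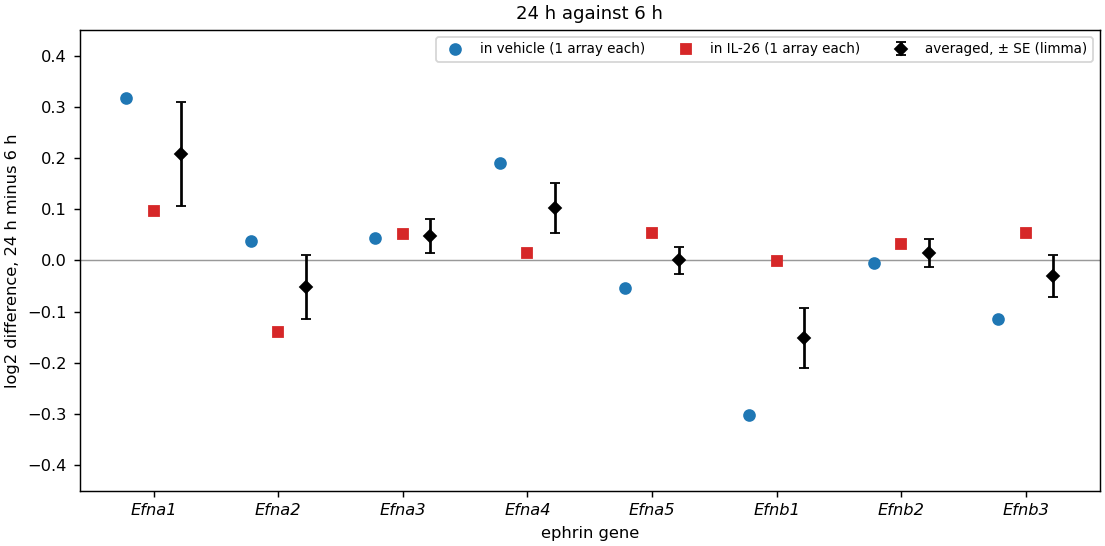
Log2 difference of 24 h minus 6 h (vertical axis) for each ephrin (horizontal axis) in vehicle (blue circles) and in IL-26 (red squares), each from 1 array against 1, with the limma average ± SE (black diamonds). Efnb1 reads -0.30 in vehicle and lies at 0 in IL-26, whereas Efna1 and Efna4 lie above 0 in both.

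Which array stood apart differed between the ephrins. The array farthest from the median of the other 3 was vehicle 6 h for Efna1, Efnb1 and Efnb3 (3 of 8, against 23.4% of all genes). It was lowest for Efna1 and highest for Efnb1 and Efnb3. IL-26 24 h was farthest for Efna2, Efna3 and Efna5 (3 of 8, against 30.2%), vehicle 24 h for Efna4 and IL-26 6 h for Efnb2. The range over the 4 arrays was widest for Efna1 (0.33 on the log2 scale) and Efnb1 (0.30), and 0.05 for Efna3 and 0.04 for Efnb2. In bulk RNA of a culture, fewer cells that express a gene and less of its RNA per cell cannot be told apart.

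The genes whose profile lay nearest to that of Efnb1, the ephrin called with time, were Utp18, a factor of small ribosomal subunit assembly, Usp12, a deubiquitinase, and Dmxl2, a regulator of the vesicular proton pump. Likeness was the root mean square distance between centred log2 profiles over the 4 arrays, which was 0.00382 for Utp18, 0.00656 for Usp12 and 0.00941 for Dmxl2 among 16927 genes detected on every array. As they were picked for likeness to Efnb1, all 3 shared its high vehicle 6 h array. Utp18 stood at 9.82 there and at 9.58, 9.51 and 9.57 on the others, Usp12 at 8.298 against 8.066, 8.004 and 8.049, and Dmxl2 at 6.67 against 6.44, 6.38 and 6.42. With time, Utp18 differed by -0.16 ± 0.11 (adjusted p = 0.328, limma) and Usp12 by -0.16 ± 0.09 (adjusted p = 0.239), and neither passed. Dmxl2 differed by -0.16 ± 0.06 and passed (adjusted p = 0.0372, limma). Efnb1 differed by -0.15 ± 0.06, so a call at this difference depended on the SE, which was larger for the brighter Utp18 and Usp12. As many as 164 genes lay within 0.05 of the Efnb1 profile, so a profile over 4 arrays is not particular to few genes.

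Of the Eph receptors, the binding partners of the ephrins, 12 of 14 were tested (Epha1 and Ephb2 were not analysed here), 1 was lower with IL-26 and the other 11 did not pass. That 1 was Epha3, a receptor of the A class that binds ephrin-A5 with high affinity. Its spot read 138.9 for vehicle 6 h, 75.3 for IL-26 6 h, 89.3 for vehicle 24 h and 63.0 for IL-26 24 h, where it lay inside the negative control range. It fell by 0.62 ± 0.06 on the log2 scale with IL-26 (adjusted p = 2.51e-11, limma), with -0.83 at 6 h and -0.41 at 24 h. The SE and p rest on the mismatch between the 2 times and on the spread of other genes. They do not measure the spread between cultures. The Epha3 spot lies beside a spot in the brightest 1% of an array, and the part of that neighbour in the difference was not tested. With local background subtracted, and with no variance trend, 0 genes were called lower with IL-26 by limma, so the call of Epha3 was lost in both. The A-class ligands beside it had averaged IL-26 differences from -0.03 (Efna2) to 0.12 (Efna1).

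With time, 1 receptor of the 12 tested rose and 3 fell, beside 14.5% of all genes called higher and 14.4% called lower. With local background subtracted 0 genes were called with time by limma, so these calls and those of the lists that follow were not made there. In that setting 345 genes were called higher and 0 lower with IL-26. The local background of a bright spot could exceed the spot (C1qbp, 5039 against 4614 on vehicle 6 h). The subtraction may thus remove signal, which was not tested, and it cannot decide whether the calls hold. Epha2, the main partner of ephrin-A1, rose by 0.36 ± 0.08, with 0.34 in vehicle and 0.38 in IL-26, where Efna1 read 0.32 and 0.10. Epha3 fell by 0.47 ± 0.06, Ephb4, the receptor that pairs with ephrin-B2 in veins and arteries, by 0.20 ± 0.07, and Epha6 by 0.08 ± 0.03. The Epha6 spot read 59.3, 55.4, 61.0 and 53.8 and was above every negative control on 1 array, vehicle 6 h, so the call rests on values inside the negative control range on the others. For Ephb4 the pairs gave -0.19 in vehicle and -0.21 in IL-26, where its ligand Efnb2, with a spot near the blank spots, gave -0.0043 and 0.03. The remaining 8 receptors did not pass.

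**Figure D4:**
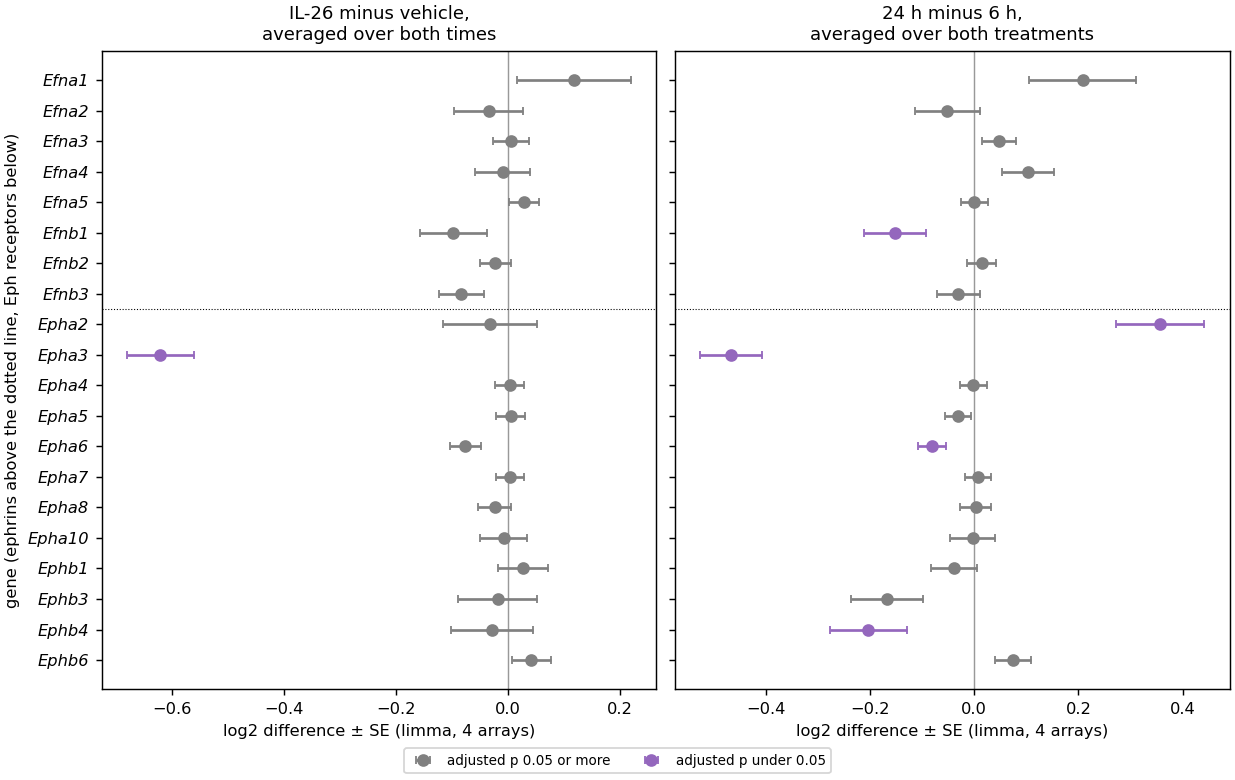
Averaged log2 difference ± SE (limma, 4 arrays, horizontal axes) of the 8 ephrins (above the dotted line) and the 12 Eph receptors tested (below it), for IL-26 minus vehicle (left) and 24 h minus 6 h (right). Purple marks an adjusted p under 0.05, which Epha3 has on both sides and Efnb1, Epha2, Epha6 and Ephb4 have for time only.

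The genes that carry Eph and ephrin signals were read beside the ligands from lists of known roles. Of the forward pathway, from the receptor to the actin cytoskeleton, 24 of 27 genes were tested, 0 changed with IL-26, 2 rose and 5 fell with time. Itsn1, an exchange factor for CDC42 that binds EphB2, rose by 0.49 ± 0.07 and Inppl1, the lipid phosphatase SHIP2 that docks on EphA2, by 0.27 ± 0.09. Rasa1, the Ras GTPase-activating protein recruited by EphB receptors, fell by 0.55 ± 0.09, the Rac GTPase-activating protein Chn2 by 0.39 ± 0.11 and the adaptor Crk by 0.31 ± 0.11.

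Of the reverse pathway and of the enzymes that cleave ephrins, 22 of 23 genes were tested, 0 changed with IL-26, 7 rose and 3 fell with time. Adam10, the metalloprotease that sheds ephrin-A ligands, did not pass in either comparison, with 0.09 ± 0.10 for IL-26 and -0.14 ± 0.10 for time (adjusted p = 0.295, limma). Its relative Adam17 rose by 0.65 ± 0.09, the polarity gene Pard6a, whose protein binds the ephrin-B1 tail, by 0.51 ± 0.07, the PDZ adaptor Pick1 by 0.31 ± 0.07 and Pard6b by 0.30 ± 0.08. Rhbdl2, a rhomboid protease that can cleave B-class ephrins, fell by 0.69 ± 0.06, the membrane metalloprotease Mmp14 by 0.28 ± 0.10 and the scaffold gene Caskin1, whose spot was above every negative control on 3 arrays, by 0.17 ± 0.05. The shedding enzymes with a call thus lay on both sides of 0.

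Of the genes tied to ephrin transcription, 18 of 20 were tested, 0 changed with IL-26, 6 rose and 2 fell with time. Rbpj, the DNA-binding partner of Notch, rose by 1.01 ± 0.09, the cytokine Tnf by 0.77 ± 0.06, the hypoxia factor Hif1a by 0.66 ± 0.11 and its target Vegfa by 0.59 ± 0.07. The receptor gene Notch1 fell by 0.52 ± 0.08 and the forkhead factor Foxc1 by 0.32 ± 0.06. Over the same hours Efna1, a gene known to respond to TNF, read 0.21 ± 0.10 and Efnb2, known to respond to Notch in arteries, 0.01 ± 0.03, and neither passed. The Efnb2 spot was above every negative control on only 1 array, so its difference cannot show a lack of response. The median time difference of each of these lists lay between -0.0189 and -0.0049, beside 0.01 for the ephrins and a background of 14.5% of genes called higher and 14.4% called lower.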

How the data were processed

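RNA of E0771 cells was hybridised to 4 one-colour 3D-Gene mouse oligo arrays, 1 per group. The deposited scanner files hold linear spot intensity, from which the authors had subtracted no background, and the deposited series matrix holds intensity less a constant near the blank spots, scaled by the authors to a median of 25 on each array, as checked against the scanner values, and was used as an alternative. Of 23473 gene probes, 20690 had 1 symbol in the platform annotation (20556 updated by gene ID and 9 by accession) and 2783 had none. Intensities were corrected by normexp fitted on the 384 blank spots (offset 50), quantile normalized and put on the log2 scale, and probes of a gene were averaged (limma 3.58.1, R 4.3.3). Genes detected on at least 1 array were tested in an additive limma model of time and treatment, with a variance trend and Benjamini-Hochberg adjustment.

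The text names all 8 ephrins and, of each list, every gene called for IL-26, the 4 highest and 4 lowest called for time, Epha3 and Adam10, and the 3 nearest profiles of a called ephrin. For the forward signalling list, 1 gene that this rule names is not reported here. Members and lists were chosen with earlier results of these data known. Alternatives changed the scaling, background, offset, value table, probe rule, detection filter and variance trend.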

Additional observations from a re-analysis of the deposited data

Results flagged for a closer look

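Several ephrins had differences of opposite sign in the 2 sides of the design, at 6 and 24 h or in vehicle and IL-26. Each side is 1 array against 1, the difference between the sides was not tested, and all values are log2 differences after normalization. For IL-26 minus vehicle, Efna2 gave 0.0545 at 6 h and -0.1233 at 24 h, and Efna4 gave 0.0777 and -0.0971. Efna5 gave -0.0253 at 6 h and 0.082 at 24 h, with a spot next to the negative controls. Efnb1 gave -0.248 at 6 h and 0.0528 at 24 h, and Efnb3 gave -0.1677 and 0.0007. For Efnb1 and Efnb3 the difference was larger at 6 h.

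For 24 h minus 6 h, Efna2 gave 0.0373 in vehicle and -0.1405 in IL-26. Efna5 gave -0.0532 and 0.054, Efnb2 gave -0.0043 and 0.0323, and Efnb3 gave -0.1144 and 0.054 in the same order. Over all genes the SD of a time difference between 2 arrays was 0.267 in vehicle and 0.276 in IL-26, and all of these ephrin values were smaller.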

How the results depend on the processing

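Of 10 alternatives, 5 (probe rule, spots beside bright spots, both filters and variance trend) left every ephrin estimate as it was and could alter only its error or p. Of the 80 averaged differences under the other 5, 65 kept their sign and their side of the threshold. No IL-26 difference passed it under any of the 10. The count of 1 ephrin called with time became 0 with local background subtracted, with an offset of 16, with no filter and with no variance trend, and 2 (Efnb1 and Efna1) with the series matrix values. With local background subtracted 1 ephrin, Efna1, was past 2-fold for IL-26 at 6 h, where its vehicle spot lay below its local background and no fold can be given, and 1, again Efna1, with time in IL-26 (-1.01). With the series matrix values 1 ephrin, Efna5, was past 2-fold for IL-26 at 24 h and 1, again Efna5, with time in vehicle, both against a vehicle 24 h spot that 30 of 96 negative controls matched or exceeded, so no fold is given. Signs turned in 12 cases, none of them past the threshold. With local background subtracted these were the IL-26 differences of Efna2 (0.1137), Efna5 (-0.0264) and Efnb3 (0.0178) and the time differences of Efna1 (-0.3913, with the same vehicle 6 h spot), Efna2 (0.1647), Efnb2 (-0.0148) and Efnb3 (0.0412). With the series matrix they were Efna3 for IL-26 (-0.0214) and Efna5 (-0.4056) and Efnb2 (-0.0317) for time, with median scaling Efnb2 for IL-26 (0.008), and with an offset of 16 Efna5 for time (-0.0015). The cause was not tested. Over all genes, IL-26 calls were 31 higher and 59 lower in the reported setting, 109 and 83 with median scaling, 345 and 0 with local background subtracted, 10 and 22 with an offset of 16, 2 and 2 with no filter, and 0 in both directions with no variance trend, where 709 genes had an unadjusted limma p under 0.05. Time calls were 2660 higher and 2639 lower, 3865 and 2443 with median scaling, 1760 and 1689 with no variance trend, and 0 with local background subtracted. Leaving out any array left no residual degree of freedom and returned a single pair's difference. No replicate block could be fitted because each group had 1 array, and the reported IL-26 test already compared arrays within each time. Signal over background was the limit for Efna3, Efna5 and Efnb2, whose spots lay within 1.22 times the blank mean. For Efna1 the local background was a limit too. It read 380.3 against a spot of 374.9 on vehicle 6 h, and 438.0 against 451.7 on vehicle 24 h. On IL-26 24 h it read 406.9 against 425.1, and on IL-26 6 h 288.2 against 399.6. Whether that background holds signal of the spot itself was not tested.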
